A study of Homo sapiens with 8 samples.

Results

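Shared CTCF peaks whose summit lay in protein-coding sequence were examined in the human osteosarcoma line U-2 OS. A peak of CTCF replicate 1 on chromosomes 1 to 22 or X was taken as shared when a replicate 2 peak overlapped it by at least 1 bp. It was counted as a coding exon peak when its summit was more than 1 kb from every annotated transcript start and inside a coding interval of a protein-coding gene (GENCODE release 44, hg38). The rule gave 472 coding exon peaks among 33936 shared peaks, 1.39% of them, in 458 genes. These peaks were selected on the peak calls themselves, so their fold enrichments are given as a description. Both CTCF lists came from clone C32, a single U-2 OS clone in which the endogenous CTCF gene carries a FLAG-Halo tag, and the pulldown used an antibody against CTCF on chromatin crosslinked for 6 min with 1% formaldehyde. The other lists came from a U-2 OS line with a V5-Halo tag at the SP1 gene, where 2 rabbit anti-Sp1 antibodies and normal rabbit IgG were used in 1 library each. No cells were treated, and the 3 input libraries have no peak list here. The series holds 8 libraries in all. The lists carry no read depth, and with 2 CTCF libraries no p-value was computed.

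CTCF is a zinc finger protein that reads a long, directional DNA sequence with an array of fingers. At many of its sites it halts the cohesin ring as cohesin extrudes a chromatin loop, which places CTCF at loop anchors and at boundaries between chromosomal domains. When such a site falls in a coding exon, the same bases have to spell codons. A site in an exon of PTPRC, the gene for the leukocyte phosphatase CD45, is a known case in which CTCF on the DNA affects whether the exon is kept in the mRNA.

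The sequences under the strongest coding exon peaks are shown first, because they carry the base pairs that CTCF and the reading frame share. The sites are among the strongest by mean log2 fold enrichment of both replicates among peaks that hold the 12-base CTCF core with at most 1 mismatch within 50 bp of the replicate 1 summit. Each line gives the hg38 position and strand of the core, and then 30 bases read 5′ to 3′ on the strand of the core. Capitals mark the core and lower case the 9 bases on either side.
LTB exon 4 of 4 (chr6:31580998-31581009, plus strand): gggtccccgCCGCCAGGGGGCgcccggccc
MED15 exon 6 of 18 (chr22:20564463-20564474, plus strand): gctgcagctCCAGCAGGTGGCgctgcagca
SPI1 exon 5 of 5 (chr11:47355354-47355365, minus strand): gatgacctaCCAGAAGATGGCgcgcgcgct
CLCN6 exon 22 of 22 (chr1:11838841-11838852, plus strand): ccctgcctgCCAGCAGATGGCaccagcgtc
ZNF469 exon 3 of 3 (chr16:88437531-88437542, minus strand): ggctgtgcaCCGCCAGGTGGCgctgcagct
CDC20B exon 3 of 12 (chr5:55146751-55146762, minus strand): gccccattaCCACAAGGTGGCagcaaagtc
C17orf50 exon 2 of 3 (chr17:35764230-35764241, plus strand): gtccagcacCCAGCAGGTGGCgctgctgcg
SRCIN1 exon 11 of 19 (chr17:38558282-38558293, plus strand): gttcctcttCCACCAGGGTGCgctgccgct
TTLL8 exon 13 of 14 (chr22:50030458-50030469, minus strand): ggcctgaagACAGCAGAGGGCgcgctgcgt
AHSG exon 4 of 7 (chr3:186617223-186617234, minus strand): tcagcggggCCAGCAGGGGGCagtcttggc
PTPRC exon 5 of 33 (chr1:198699616-198699627, minus strand): gtgtcagttCCAGCAGAGGGCgtctgcgag

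The first 10 lines are 10 of the 12 strongest sites off chromosome 8, where 1 further site, not counted here, would rank among them. The others of that group lie under the peak in exon 5 of SLC52A3 and under the peak in exon 9 of ZFR2, a gene for a zinc finger RNA-binding protein, where the core is in the flanking intron. In the 12, the fold over control ran from 144 to 246 in replicate 1 and from 69.9 to 114 in replicate 2. The core matched exactly in 4 of them and ran on the strand of the gene in 7. A G followed the core in 9 and an A in 3, so neither of the other bases occurred there. The PTPRC line is shown for the known role of that exon.

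Among the coding exon peaks with a core, those in LTB, MED15, SLC52A3 and SPI1 ranked near the top in both replicates. LTB, which encodes lymphotoxin beta, a membrane-bound cytokine of the tumor necrosis factor family, had a peak of 229.9-fold in replicate 1 and 108.9-fold in replicate 2. MED15, a subunit of the Mediator complex that connects activators to RNA polymerase II, had 215.4-fold and 113.8-fold. SLC52A3, a riboflavin transporter, had 245.9-fold and 85.3-fold. In each of these genes the fold in replicate 2 was lower than in replicate 1. SPI1 encodes PU.1, a transcription factor of myeloid and B cells, and had 226.6-fold and 89.1-fold. AHSG, which encodes the liver-secreted plasma protein fetuin-A, had 188.1-fold and 76.5-fold. LTB, SPI1 and AHSG, genes best known from blood or liver, stood in a mixed list beside others such as MED15 and SLC52A3. The share of blood or liver genes was not computed, and the peak lists carry no measure of transcription in these cells. The highest mean over all 472 was in ZNF219, a zinc finger gene, with 322.1-fold in replicate 1 and 80.6-fold in replicate 2, where the best core near the summit had 2 or more mismatches.

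The PTPRC peak stood at 108.8-fold in replicate 1 and 61.8-fold in replicate 2, rank 48 of the 472 by mean log2 fold. Its core matched exactly, its centre was 5.50 bp from the replicate 1 summit, and it read against the direction of the gene. The summit was 63 bp from the 5′ edge and 77 bp from the 3′ edge of an exon of 141 bp. Of 12 protein-coding transcripts of PTPRC, 5 hold the summit in coding sequence, which is the alternative exon 5 of the gene.

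Over all coding exon peaks, the replicate 1 fold had a median of 30.4, quartiles of 14.2 and 62.9, and a range from 3.97 to 322. The replicate 2 fold had a median of 14.2, quartiles of 7.25 and 32.2, and a range from 2.43 to 122. Replicate 2 was lower in 462 of 472 peaks (97.9%), and its median log2 ratio to replicate 1 was −0.97 (95% interval of the median −1.01 to −0.91). The ratio moved in the same direction in introns, at −0.88 (−0.89 to −0.88), so the step between the libraries was present in both classes. These intervals cover the spread across peaks of the same 2 libraries, so whether the step differs between classes was not tested. The ranks of the 472 peaks in both replicates had a Spearman rho of 0.942 as a description across peaks, which share both libraries. The summits of both replicates lay a median of 10.0 bp apart and within 20 bp in 391 of 472 peaks.

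**Figure D1:**
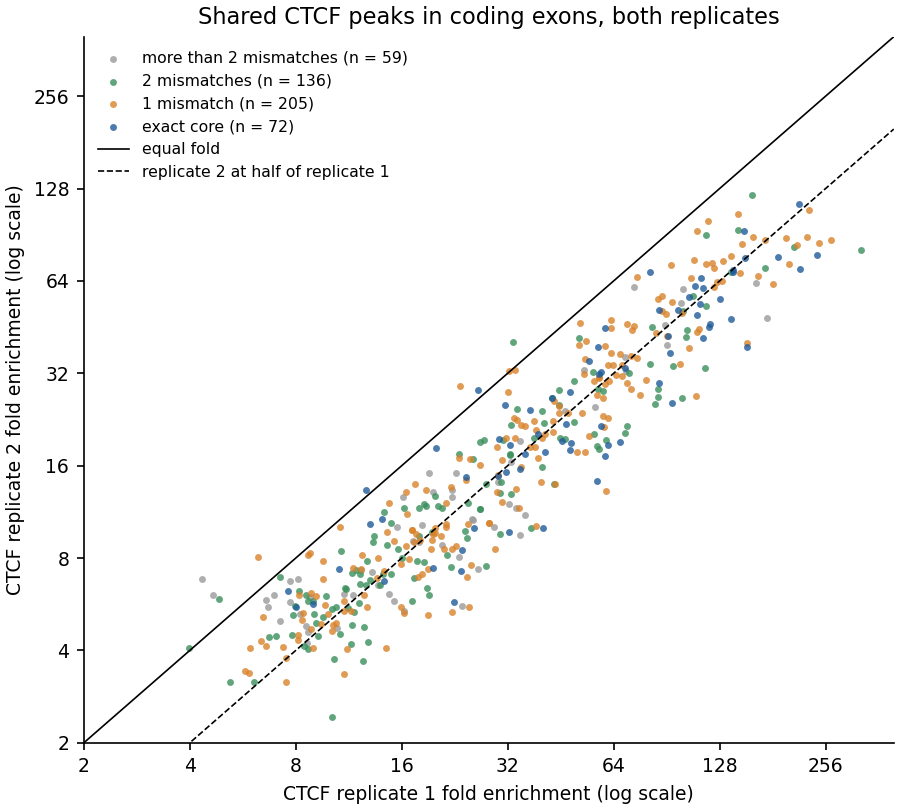
Each point is 1 of the 472 shared CTCF peaks in coding exons, with the fold enrichment over control in replicate 1 on the x axis and in replicate 2 on the y axis, both on log scales, colored by the mismatches of the best core within 50 bp. The solid line marks equal fold and the dashed line replicate 2 at 0.5 of replicate 1. Most points lie along the dashed line, and 462 of 472 lie under the solid one.

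The weakest members by mean fold were in TELO2, a partner of the kinase chaperone machinery, with 6.07-fold and 3.15-fold, in ABCA3, the lipid transporter of lung surfactant, with 5.21-fold and 3.16-fold, and in TAS1R2, a sweet taste receptor subunit, with 3.97-fold and 4.07-fold. None of these 3 had a core with at most 1 mismatch. The replicates diverged most in TMPO, which encodes lamina-associated polypeptide 2, with 60.8-fold in replicate 1 and 13.3-fold in replicate 2, a log2 ratio of −2.19. MUC19, a gel-forming mucin gene, followed with 24.8-fold and 5.54-fold, and ZNF704 with 23.8-fold and 5.602-fold. Replicate 2 was above replicate 1 in 10 peaks, at low and at middle folds. The highest of them was in RPL37A, a ribosomal protein gene, with 33.2-fold in replicate 1 and 40.4-fold in replicate 2. The steepest steps in this direction were at low fold. HTR1A, a serotonin receptor, had 4.33-fold in replicate 1 and 6.81-fold in replicate 2, HACD1, an enzyme of very long fatty acid synthesis, had 4.65-fold and 6.06-fold, and FSCN3, a testis fascin, had 6.24-fold and 8.07-fold. Replicate 2 was more than 4-fold below replicate 1 in 8 of the 472 peaks (1.69%), against 139 of 14123 intron peaks (0.984%).

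At the distance limit, the nearest members inside were in TMEM95, a sperm membrane protein, 1005 bp from a start with 93.1-fold and 72.2-fold, and in CLEC11A, a secreted C-type lectin, 1029 bp from a start with 85.4-fold and 26.8-fold. The nearest coding exon peak outside was in THBD, the endothelial receptor thrombomodulin, at 990 bp with 21.7-fold and 10.7-fold. Over all members the nearest start was a median of 4634 bp away, with quartiles of 2108 and 10220 bp.

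Coding exon peaks were weaker than shared peaks in other sequence away from starts. The intron peaks had medians of 39.4-fold and 20.9-fold in the 2 replicates, and the intergenic peaks 46.1-fold and 24.2-fold, against 30.4-fold and 14.2-fold in coding exons. Of the coding exon peaks, 17.8% were in the strongest 25% of all shared peaks by mean fold. The order held in both replicates, and the quartile ranges overlapped widely. The share of replicate 1 peaks that replicate 2 also called was 78.1% in coding exons (472 of 604, 95% Wilson interval 74.7 to 81.3), beside 79.9% over all replicate 1 peaks on these chromosomes. Wilson and Poisson intervals here cover counting error only.

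**Figure D2:**
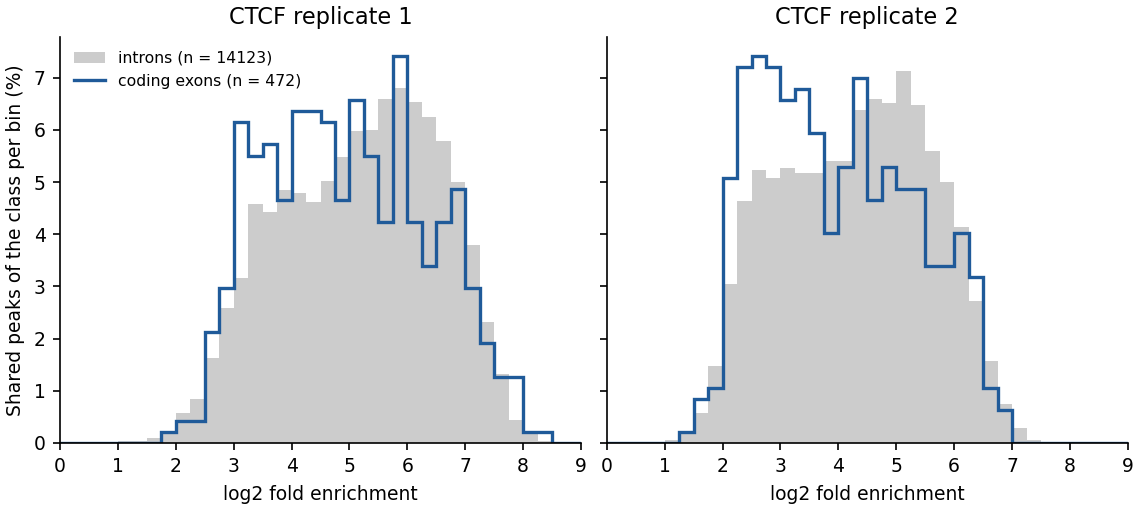
The x axis is log2 fold enrichment over control in bins of 0.25 and the y axis is the percent of shared peaks of the class in each bin, for CTCF replicate 1 (left) and replicate 2 (right). The blue outline is the 472 coding exon peaks and the gray area the 14123 intron peaks. The coding exon share is the larger in the bins starting at 2.5 to 3.5 in replicate 1 and at 2 to 3.5 in replicate 2. At still lower fold the intron share is the larger in the bins at 2 and 2.25 in replicate 1 and at 1.75 in replicate 2. In replicate 2 the highest bin with coding exon peaks starts at 6.75, and the higher bins hold at most 0.283% of intron peaks each. In replicate 1 the coding exon share is the larger in the bins starting at 7.75 (1.27% and 0.446%), 8 and 8.25, and only intron peaks reach the bin at 8.5.

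The bases around coding exon peaks were rich in G and C, with a median of 59.4% within 50 bp of the summit and a mean of 4.25 CpG dinucleotides. Intron peaks had 49.5% and 1.86. In introns and in intergenic sequence the fold rose with GC content, whereas the coding exon medians showed no steady rise. At a GC content under 45% the coding exon median was 23.1-fold in replicate 1 (76 peaks), beside 32.7-fold in introns. At 65% or more it was 34.1-fold in replicate 1 and 14.8-fold in replicate 2 (146 peaks), beside 77.7-fold and 34.9-fold in introns (1040 peaks). The gap between coding exons and introns was thus widest in the most GC-rich windows. The log2 ratio of the replicates was also lowest there, at −1.10 (−1.26 to −1.02) in coding exons and −0.95 (−0.97 to −0.91) in introns.

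The CTCF core was present at the summits of coding exon peaks about as often as at shared peaks in general. It was found with at most 1 mismatch on either strand within 50 bp in 277 of 472 peaks (58.7%, 54.2 to 63.0), beside 57% of all shared peaks and 60.4% of intron peaks. Windows of the same length centred 500 bp to either side of the coding exon summits held it in 14 of 944 cases (1.48%, 0.885 to 2.47). An exact core was found in 72 peaks (15.3%, 12.3 to 18.8), less than the 19.9% (19.3 to 20.6) of intron peaks, and in 0 of 944 flanking windows, which allows a share of up to 0.318% (3 counts of the total). With up to 2 mismatches the share was 87.5% in coding exons and 87.8% in introns. The core centre lay in a coding exon in 251 of the 277 peaks, in an intron in 24 and in other exonic sequence in 2.

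Fold enrichment fell with each mismatch in the core. In coding exons the replicate 1 median was 57.5-fold with an exact core, 33.9-fold with 1 mismatch, 20.5-fold with 2 and 19.7-fold with more. The replicate 2 medians were 25.4-fold, 17.7-fold, 10.9-fold and 9.48-fold. Intron peaks had 60.4-fold, 43.8-fold, 29.9-fold and 18.98-fold in replicate 1, and 31.8-fold, 23.2-fold, 15.9-fold and 10.3-fold in replicate 2. At the poorest match the classes were close in both replicates. At the exact core they were close in replicate 1 only, and coding exons were lower in replicate 2. At 1 and 2 mismatches coding exons were lower in both replicates.

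**Figure D3:**
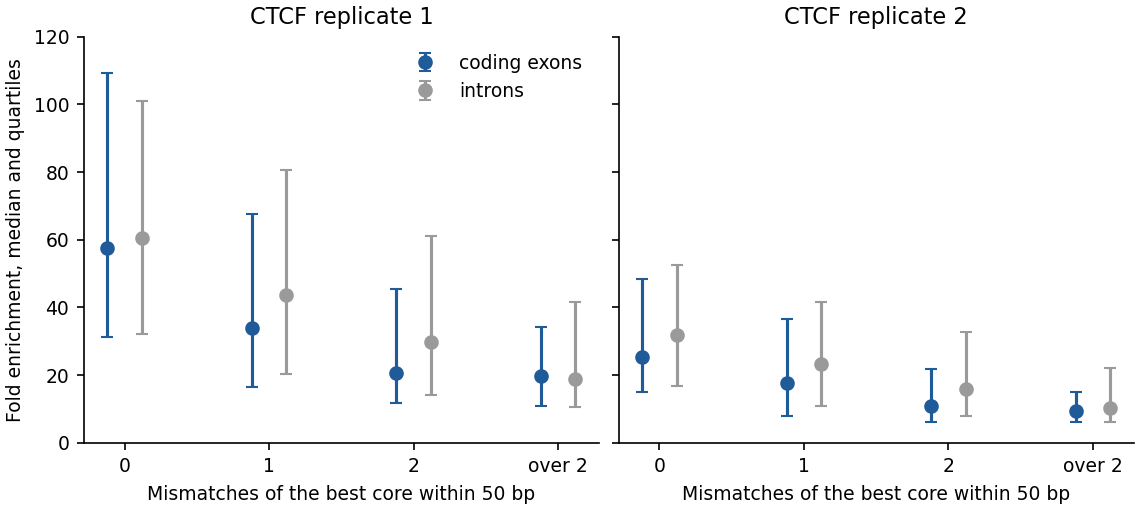
The x axis gives the mismatches of the best CTCF core within 50 bp of the replicate 1 summit, and the y axis the fold enrichment over control in replicate 1 (left) and replicate 2 (right). Points are medians and bars run from the lower to the upper quartile of the peaks, for coding exons (blue) and introns (gray). The coding exon medians fall from 57.5 to 19.7 in replicate 1 and from 25.4 to 9.48 in replicate 2.

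Shared peaks were denser in coding sequence than in introns, and so was the core. The 22.8 Mb of coding sequence over 1 kb from starts, 0.784% of the sequence searched, held 20.7 shared peaks per Mb (18.9 to 22.6, exact Poisson interval). Introns held 9.45 per Mb (9.30 to 9.61), intergenic sequence 9.87 (9.69 to 10.1) and other exonic sequence 18.1 (17.2 to 19.1). The density in coding sequence was 2.19 times that in introns (1.99 to 2.40). Exact cores were also 2.22 times as dense (1.90 to 2.59), with 171 in coding sequence (7.49 per Mb) and 5032 in introns (3.37 per Mb). Per exact core, coding sequence and introns therefore had peaks in a ratio of 0.984. This near-equal ratio is for the exact core only, and it counts all peaks. Only 15.3% of coding exon peaks and 19.9% of intron peaks held an exact core within 50 bp of the summit. Cores with at most 1 mismatch stood at 140 per Mb in coding sequence and 50.6 per Mb in introns, a wider gap than that of the peaks. Per such core, coding sequence had fewer peaks than introns.

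Starting from the cores instead of the peaks, an exact core in coding sequence was less often inside a shared peak than an exact core elsewhere. Of the 171 coding cores 75 were inside a shared peak (43.9%, 36.6 to 51.4), against 57.9% in introns (56.6 to 59.3), 62.3% in intergenic sequence (60.7 to 63.8) and 64.7% in other exonic sequence (60.3 to 68.9). The coding interval did not reach the interval of any of these classes. Among cores over 5 kb from starts it did, with 46 of 92 coding cores inside a peak (50.0%, 39.99 to 60.01), 57.4% in introns (55.7 to 59.0) and 59.6% in intergenic sequence (57.8 to 61.3). Of the 171 cores, 11 lay in TBC1D3 genes, whose sites have the same sequence (described with the repeated genes), and without them the coding share was 40.0% (64 of 160, 32.7 to 47.7).

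**Figure D4:**
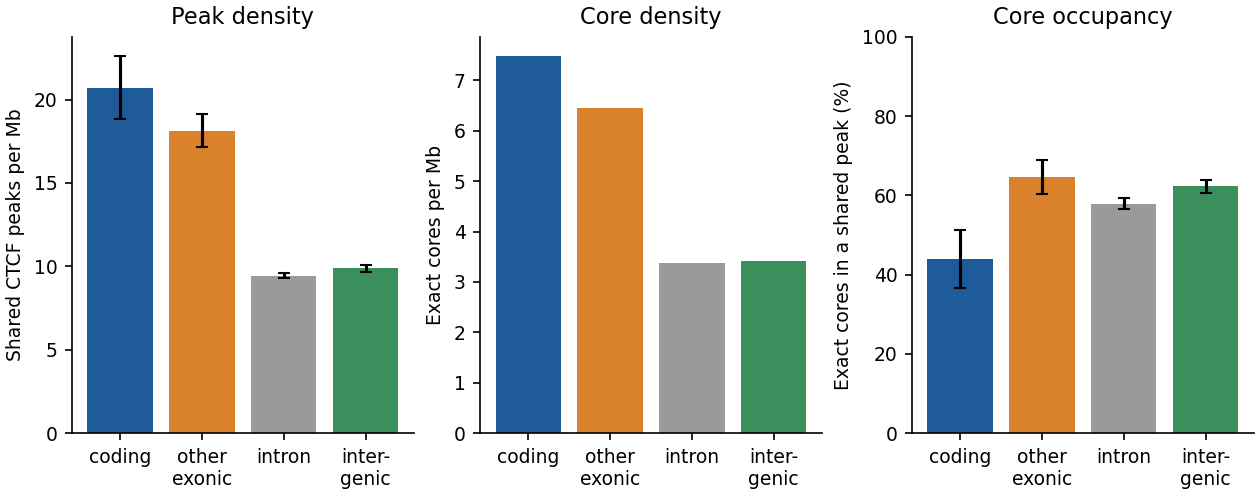
Bars give shared CTCF peaks per Mb (left), exact CTCF cores per Mb (middle) and the percent of exact cores inside a shared peak (right) in coding, other exonic, intron and intergenic sequence over 1 kb from transcript starts. Error bars on the left are 95% exact Poisson intervals and on the right 95% Wilson intervals, both for counting error. Coding sequence has the most peaks per Mb (20.7) and exact cores per Mb (7.49) of the classes drawn, and the lowest share of cores in a peak (43.9%).

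The base that followed the core went with a large part of the spread in occupancy. In coding sequence 29 of 37 exact cores followed by G were inside a shared peak (78.4%, 62.8 to 88.6), as were 27 of 53 followed by A (50.9%, 37.9 to 63.9). Of those followed by C, 14 of 47 were inside a peak (29.8%), 11 of them in TBC1D3 genes, and outside those genes the count was 3 of 36 (8.33%, 2.88 to 21.8). Of those followed by T, 5 of 34 were inside a peak (14.7%, 6.45 to 30.1). The order of G, A and then the pyrimidines was the same in introns, with 91.6%, 69.1%, 22.1% for C and 32.5% for T. Outside TBC1D3 genes the coding value was below the intron value at each base. The bases themselves were distributed differently, and A followed 31.0% of coding cores and 48.3% of intron cores. Weighting the coding cores to the intron shares of this base gave 44.6%, close to the unweighted 43.9%, and weighting the intron cores to the coding shares gave 53.8%, below the unweighted 57.9%. By GC content the same weightings gave 38.3% for coding cores and 58.7% for intron cores.

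At the 277 coding exon peaks with a core, the following base was G in 158 (57.0%, 51.2 to 62.7), A in 91 (32.9%), C in 18 (6.50%) and T in 10 (3.61%). At intron peaks A was the most frequent, at 53.0%, and G followed in 34.9% (33.9 to 35.9). An exact core with G after it ends in a CpG. In coding exons the median fold with G was 43.97-fold in replicate 1 and 22.8-fold in replicate 2, with A 33.9-fold and 17.8-fold, with C 42.2-fold and 17.5-fold, and with T 15.2-fold and 9.77-fold. Of the 18 peaks with C, 10 were the copies in TBC1D3 genes.

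Cores in coding exon peaks were spread over both strands and over the codon positions as cores in coding sequence are. The core ran on the strand of the gene in 126 of 277 peaks (45.5%, 39.7 to 51.4), and in 43.9% (42.2 to 45.6) of all 3205 cores with at most 1 mismatch in coding sequence. Of the 277, 246 lay wholly within 1 coding exon of the reference transcript. Counting from the base of the core that comes first along the gene, cores on the gene strand began at codon position 1 in 40, at position 2 in 14 and at position 3 in 54. Cores on the opposite strand began there in 43, 62 and 33. The rarest arrangement, the gene strand with position 2, made up 5.69% (3.42 to 9.32) at the peaks and 6.54% (5.72 to 7.47) of all such cores in coding sequence. The most frequent, the opposite strand with position 2, made up 25.2% (20.2 to 31.0) and 28.9% (27.3 to 30.5). The 6 intervals of the peaks each held the value for coding sequence as a whole.

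**Figure D5:**
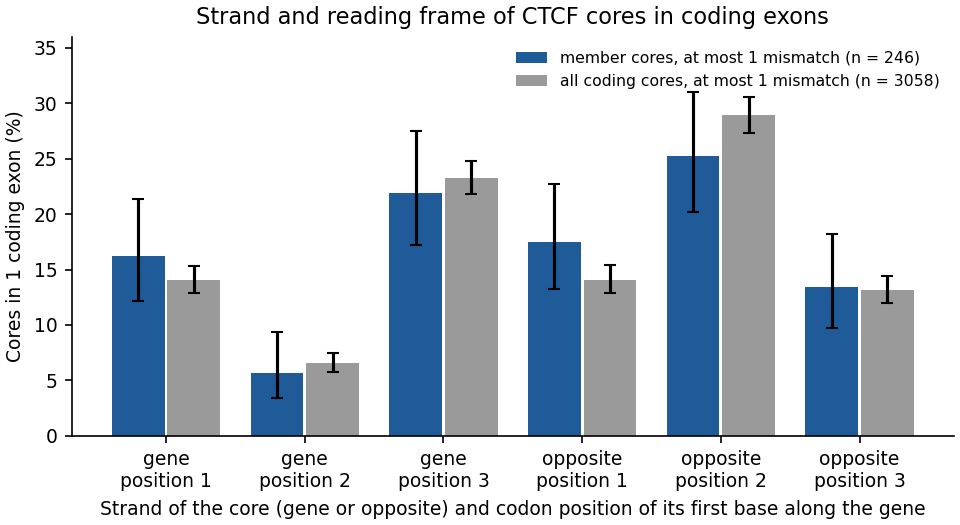
Bars give the percent of CTCF cores wholly within 1 coding exon by the strand of the core (that of the gene or the opposite) and the codon position of its first base along the gene. Blue is the 246 cores with at most 1 mismatch at coding exon peaks and gray the 3058 such cores in all coding sequence over 1 kb from starts, with 95% Wilson intervals for counting error. Position 2 on the gene strand is the lowest bar in both sets (5.69% and 6.54%) and position 2 on the opposite strand the highest (25.2% and 28.9%).

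By exon order, coding exon peaks were spread much as the coding bases were, and they differed from the bases in their distance to exon edges. The last of several coding exons held 109 of 472 peaks (23.1%, 19.5 to 27.1), beside 21.7% of the coding bases over 1 kb from starts. Single coding exons held 23 (4.87%), beside 5.202%. The last 10% of the coding sequence held 83 peaks (17.6%, 14.4 to 21.3) against 13.5% of the bases. Of these 83, 10 were copies of 1 site in TBC1D3 genes (described with the repeated genes), and without them the count was 73 of 462 (15.8%, 12.8 to 19.4), an interval that held the share of bases. The summits were within 25 bp of an exon edge in 25.2% of peaks and 25.9% of bases, and within 100 bp in 72.2% (68.0 to 76.1) and 67.9%. From 75 to 100 bp from an edge there were 57 peaks (12.1%, 9.44 to 15.3) and 6.62% of the bases. Those 57 include NBPF peaks (described with the repeated genes) in exons of 210 bp. Examples are NBPF9, NBPF10 and NBPF26, at 79, 85 and 78 bp from an edge. Such copies were counted as separate sites, and the share without them was not computed. At 500 bp or more there were 35 (7.42%, 5.38 to 10.1) and 13.7% of the bases. Where a gene had at least 2 protein-coding transcripts, the summit was in the coding sequence of all of them in 108 of 400 peaks (27.0%, 22.9 to 31.5), beside 28.8% of bases.

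Most genes had a single coding exon peak. There were 446 with 1, 10 with 2 and 2 with 3. Among those with 2, chosen here after their values were seen, LRP1, which encodes a large endocytic receptor of the LDL receptor family, and EPG5, an autophagy gene, had an exact core under both peaks.
LRP1 exon 21 of 89 (chr12:57173175-57173186, minus strand): gtgtggcagCCACCAGGGGGCctcgtggct
LRP1 exon 24 of 89 (chr12:57176043-57176054, minus strand): cacgtcggtCCAGTAGAGGGCgctctggct
EPG5 exon 23 of 44 (chr18:45910598-45910609, minus strand): ctccgtgttCCAGCAGAGGGCagtgaaggg
EPG5 exon 32 of 44 (chr18:45880136-45880147, minus strand): ccccagctgCCAGCAGGGGGCagcgtccac
The LRP1 peaks had 30.1-fold and 14.8-fold at exon 21, and 60.3-fold and 44.8-fold at exon 24, in replicates 1 and 2. The EPG5 peaks had 58.2-fold and 31.8-fold at exon 23, and 151-fold and 76.2-fold at exon 32. Both LRP1 cores read against the gene and both EPG5 cores with it, so the 2 sites of a gene pointed the same way in each case.

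The keratin genes held 5 coding exon peaks, each in exon 7 of 9 of its gene, an exon of 221 bp near the end of the part that codes for the helical rod. Keratins form the intermediate filaments of epithelia and hair, and the 5 genes belong to the type II keratin cluster on chromosome 12. They are named here after their values were seen. KRT81 had the highest fold, 60.3 in replicate 1 and 21.4 in replicate 2. KRT80 had 17.5 and 13.9, and KRT82 had 18.3 and 7.09. KRT83 had 16.4 and 8.76, and KRT85 had 18.03 and 9.15, so these 4 were close to each other in replicate 1. The bases within 50 bp of the summit occurred once in the genome for each of the 5 peaks. The 5 peaks lay over the same 12 core bases, on the opposite strand and at codon position 1 in each gene. In all, 7 keratin genes hold these bases in coding sequence, 5 of them in a shared peak. The family had 122 peaks per Mb (39.7 to 286) beside 20.7 in all coding sequence. That interval counts the 5 as separate sites, although they share 1 sequence.

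Repeated genes with nearly identical sequence gave further groups, and their peaks are uncertain because reads from identical copies cannot be placed. The window of 50 bp to either side of the summit occurred more than once in the genome for 30 of 472 peaks (6.36%, 4.49 to 8.93). TBC1D3 genes, a primate-specific family on chromosome 17, gave 10 of them, with 1 peak in the last exon of each of 10 genes and the same site in all.
TBC1D3 exon 14 of 14 (chr17:38182145-38182156, plus strand): ttcagcctgCCAGCAGGGGGCcagctggtc
The 10 peaks ranged from 31.4-fold to 61.8-fold in replicate 1 and from 14.3-fold to 25.3-fold in replicate 2, and each window occurred 10 times. They made up 10 of the 72 coding exon peaks with an exact core. The NBPF genes, a family with many copies of a repeated domain on chromosome 1, had 14 peaks in 9 genes, 7 of them with a window found more than once. NBPF1 had 3 peaks, of 64.97-fold and 31.6-fold, 7.73-fold and 5.76-fold, and 8.24-fold and 5.26-fold in replicates 1 and 2. NBPF12 also had 3, of 43.1-fold and 22.4-fold, 28.4-fold and 10.4-fold, and 14.2-fold and 7.12-fold. CNTNAP3 and CNTNAP3B, which encode cell adhesion proteins of the neurexin superfamily, had 2 peaks each, in exons 10 and 22 of both genes. Peaks with a repeated window had median folds of 48.1 and 18.9, and the other 442 had 29.8 and 13.9.

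Chromosome 17 held 44 coding exon peaks (40.2 per Mb, 29.2 to 53.9) and chromosome 1 held 75 (31.4 per Mb, 24.7 to 39.3), the highest densities of all chromosomes. Counting only peaks whose window occurred once, the densities were 30.1 per Mb (20.7 to 42.3) and 28.0 per Mb (21.7 to 35.6). Chromosome 20, with all its peaks counted, stood at 29.6 per Mb (17.3 to 47.5). The lead of chromosomes 17 and 1 was therefore not shown without repeated windows. Chromosome X held 5 (5.32 per Mb, 1.73 to 12.4) and chromosome 3 held 14 (10.5 per Mb, 5.77 to 17.7), while introns on these had 7.03 and 8.88 shared peaks per Mb. The intron density on chromosome 17 was 13.2 per Mb.

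Other gene families held few coding exon peaks. In 19 families listed by gene symbol, 47 peaks fell in 2.73 Mb (17.2 per Mb, 12.7 to 22.9), close to the density of all coding sequence. Solute carriers held 12 in 12 genes (28.7 per Mb, 14.8 to 50.2), the strongest being SLC52A3. Zinc finger genes named ZNF, ZSCAN, ZKSCAN, ZBTB or ZFP with a number held 10 in 0.964 Mb (10.4 per Mb, 4.97 to 19.1). That interval lay below the 20.7 per Mb of all coding sequence, and exact cores were also sparse in this set, at 2.07 per Mb. Other C2H2 zinc finger genes with a coding exon peak, such as KLF1, KLF10, SP6 and SP8, are outside this set. Clustered protocadherins, whose promoters and first exons are known for CTCF sites, held 0 away from starts in 0.0654 Mb, which allows up to 56.4 per Mb. By the same exact Poisson limit, collagens held 0 in 0.151 Mb (up to 24.4 per Mb) and dyneins 0 in 0.183 Mb (up to 20.2 per Mb). Laminins, semaphorins and plexins, and histone genes also held 0.

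The HOX genes, which pattern the body axis, held 2 in 27 genes, beside a member in 458 of 17859 genes over all coding sequence. Their coding sequence over 1 kb from starts is short, at 0.00896 Mb. The density was 223 per Mb (27.0 to 806), above the 20.7 per Mb of all coding sequence, and it rests on 2 peaks. HOXD10 had a peak of 89.5-fold and 46.1-fold in exon 2 of 2, and HOXC10 had 22.9-fold and 15.1-fold, also in exon 2 of 2. The summits lay 151 and 152 bp from the 5′ edge of the exon and at 87.8% and 88.0% of the coding sequence, so these paralogs were marked at matching positions. Neither had a core with at most 1 mismatch within 50 bp. NOTCH2 and NOTCH3, receptors of the Notch pathway chosen here after their values were seen, had 110-fold and 43.8-fold, and 118-fold and 53.2-fold. Of the genes for CTCF, the cohesin subunits RAD21, SMC3 and STAG2, and the tumor suppressors RB1 and NF1, none held a coding exon peak.

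Few coding exon peaks were also in the Sp1 lists, and none were in the IgG list. Sp1 is a zinc finger factor that binds GC-rich promoters. An Sp1 antibody 1 peak overlapped 19 of the 472 (4.03%, 2.59 to 6.20), beside 5.4% of all shared CTCF peaks, and an antibody 2 peak overlapped 10 (2.12%, 1.15 to 3.86), beside 3.36%. Both antibodies overlapped 9. Most of these overlaps were not at a common summit, since the Sp1 and CTCF summits lay within 100 bp in 7 peaks for antibody 1 (1.48%, 0.720 to 3.03) and in 2 for antibody 2. Intron peaks were overlapped in 0.836% (0.698 to 1.00) by antibody 1, so coding exon peaks lay above introns and below promoters, where the share was 20.9%. The 19 lay a median of 1500 bp from a start, near the limit of 1 kb, whereas the median over all members was 4634 bp. IgG overlapped 0 of 472, which by the limit of 3 counts allows a share of up to 0.636%, beside 0.109% of all shared CTCF peaks. The strongest members in both Sp1 lists were in CCDC61, a centrosomal protein gene, with CTCF folds of 146 and 68.0, in CLEC11A with 85.4 and 26.8, in RASA4B, a Ras GTPase-activating protein gene with a window found more than once, with 55.9 and 32.2, and in MYO15B, an unconventional myosin gene, with 34.4 and 11.7. The Sp1 lists come from another tagged line with 1 library per antibody, so line and antibody cannot be told apart.

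Coding exon peaks had neighbors somewhat closer than intron peaks did. The next shared summit was a median of 15430 bp away, against 21410 bp in introns and 18730 bp in intergenic sequence. It was within 10 kb in 182 of 472 peaks (38.6%, 34.3 to 43.0), against 30.5% (29.8 to 31.3) in introns. In intergenic sequence the share was 34.1% (33.2 to 35.0), an interval that overlaps the coding one. A shared CTCF peak lay within 1 kb of a start of the same gene for 140 of the 458 genes (30.6%, 26.5 to 34.9), and for 24.9% (24.3 to 25.6) of all protein-coding genes with coding sequence over 1 kb from starts. For Sp1 antibody 1 the shares were 38.0% (33.7 to 42.5) and 38.2%.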

How the data were processed

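Per the authors' processing notes, the lists rest on cutadapt 2.6 for trimming, Bowtie2 2.4.5 for alignment to hg38 and MACS2 2.2.7.1 for peak calling. SAMtools 1.15.1, deepTools 3.5.4 and bedtools 2.27.1 are also listed. Each of the 5 deposited peak lists was called on its own library and gives fold enrichment over control (a linear ratio), −log10 p and −log10 q, a score that was not used, and the offset of the summit. The labels and methods place CTCF in clone C32 with FLAG-Halo-CTCF, whereas the series description names unmodified U-2 OS cells. The labels were followed. The methods describe a liberal p-value limit, no local background and merged controls for a reproducibility step, which may or may not hold for the lists used here.

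From these lists, classes of sequence were built in the order promoter (within 1 kb of any transcript start), coding, other exonic, intron and intergenic, from GENCODE release 44 and hg38, with python 3.11.15, numpy 2.4.6 and scipy 1.17.1. A summit took the Ensembl canonical transcript first and then the one with the longest coding sequence. The 12-base CTCF core was sought on both strands with at most 1 mismatch, keeping the fewest mismatches and then the nearest to the summit. Occupancy used cores wholly inside a shared replicate 1 peak. Intervals are 95% Wilson or exact Poisson and cover counting error only. The labels number the CTCF libraries as replicates, and the lists give no read depth. On a simulated chromosome, planted shared peaks, coding and intron classes, cores, strands and codon positions were recovered. The Sp1 and IgG overlaps, repeated windows, gene families and weightings were not part of that check.

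Genes were named as the 12 strongest members with a core off chromosome 8, members in HOX genes, protocadherins and collagens, genes with 3 members, the 3 weakest, the 3 at each end of the replicate ratio, the nearest to the 1 kb limit, PTPRC and other genes chosen by symbol, and the strongest in both Sp1 lists. Some genes and sequences under these rules are not reported here. The members, gene lists and rules were chosen with earlier results of these data known. The splits by the base after the core and by GC content of cores, the weighting and the counts with and without repeated genes were added after the data had been seen.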

Additional observations from a re-analysis of the deposited data

How the results depend on the processing

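Of 56 alternative values, 42 were classed as the same as the reported one and 14 as moved. The first class was broad, and it held counts of 575 at 500 bp to a start and 604 without replicate 2. The count of 472 became 228 at 5 kb to a start and 900 with no such limit, and ranged from 483 to 604 with 1 replicate left out. The ratio of coding to intron density crossed 1, falling to 0.984 per exact core, and ranged from 2.17 to 2.26 with 1 replicate left out. By −log10 p the log2 ratio between replicates was −1.03. The share of members with a core was 15.3% for the exact core, 87.5% with 2 mismatches and 51.9% within 25 bp. It ranged from 51.8% to 55.9% with 1 replicate left out. By a weight matrix of 19 bases it was 89.4% (92.2% in introns and 7.52% in flanking windows). The matrix was trained on 15060 cores under intron and intergenic shared peaks of these data. The intron share is therefore no independent comparison for the coding exon share. Core occupancy was 10.7% with 1 mismatch or none (13.1% in introns), and ranged from 43.9% to 47.4% with 1 replicate left out. Position 2 on the opposite strand, the most frequent with at most 1 mismatch, held 17.9% of exact cores, whose most frequent was position 1 on that strand (25.4%). Overlap with any Sp1 or IgG peak, 4.24%, was 2.33% with 50% reciprocal overlap and 1.48% with summits within 100 bp. The listed families had 0.833 of the density of all coding sequence per Mb and 1.13 per exact core, which also crossed 1. No paired analysis was possible because replicate numbers of CTCF recur only among inputs, and no peaks of these are used here. Without read depth, a core in no peak could not be told from one below the calling limit.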
